A study of Mus musculus with 9 samples.

Results

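The smooth muscle contractile genes described here are Acta2, Actg2, Tpm2, Tagln, Cnn1, Lmod1, Myh11, Myl9, Mylk and Des, 10 listed genes of the 22092 that could be named in the count files. The list was given by symbol, with no threshold on a measured value, and with earlier results of these data known. Each gene was read from the transcript with the highest CPM, which is a count scaled to the total of its library, summed over all libraries. All 10 genes passed the filter on low counts, as did 14427 genes in all.

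Translating ribosome affinity purification (TRAP) was done on mice of the strain Aldh1L1 JD130, genotype tg:Aldh1L1-L10aGFP, aged 2 months. In these mice the astrocyte promoter of Aldh1l1 drives a GFP-tagged ribosomal protein, L10a, and the tagged ribosomes are pulled down together with the mRNAs they carry. The 3 whole astrocyte libraries came from 1 brain each, with the choroid plexus removed, and the 6 endfeet libraries from purified brain vessels pooled from 8 mice each, to which the perivascular endfeet of astrocytes stay attached. All mice carried the transgene, and all buffers held cycloheximide, which holds ribosomes on their mRNAs. The comparison of endfeet with whole astrocyte TRAP asks which ribosome-bound mRNAs differ between the perivascular compartment and the whole cell.

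Smooth muscle cells wrap arteries and arterioles and set their diameter. Calcium signals activate the myosin light chain kinase, which phosphorylates the regulatory light chain and lets smooth muscle myosin pull on actin filaments, while tropomyosin, calponin and transgelin sit along those filaments and desmin links the contractile units to the cell's scaffold. Many of these genes are controlled by serum response factor and its partner myocardin through short A/T-rich promoter elements called CArG boxes. Within vessels, the same mRNAs mark the mural cells, and none of them is known as an astrocyte marker.

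Promoters of 7 of the 10 genes could be read from RefSeq (build GRCm38.p6, 250 bases before to 50 bases after the start of transcription), and those of Actg2, Tagln and Myh11 were not among them. The 2 that hold CArG boxes are shown, because many genes of the family are known to be controlled through such elements. Capitals mark boxes with at most 1 C or G among the 6 central bases, a definition relaxed after the strict matches were seen. A box reads as the same class of sequence on the other strand, so a search of either strand finds it.
Acta2, chr19:34255324-34255623, minus strand: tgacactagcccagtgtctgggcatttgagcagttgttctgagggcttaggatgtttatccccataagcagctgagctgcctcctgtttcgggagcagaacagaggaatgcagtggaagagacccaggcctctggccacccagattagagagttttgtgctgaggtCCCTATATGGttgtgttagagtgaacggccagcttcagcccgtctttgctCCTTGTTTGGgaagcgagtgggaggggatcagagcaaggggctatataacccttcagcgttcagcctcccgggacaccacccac
Myl9, chr2:156775214-156775513, plus strand: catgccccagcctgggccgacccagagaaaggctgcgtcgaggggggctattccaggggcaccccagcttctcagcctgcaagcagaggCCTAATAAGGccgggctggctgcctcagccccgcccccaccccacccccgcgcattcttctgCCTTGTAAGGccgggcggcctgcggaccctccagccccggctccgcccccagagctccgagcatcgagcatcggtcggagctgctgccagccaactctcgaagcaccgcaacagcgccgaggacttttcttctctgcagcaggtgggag

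The Acta2 boxes began 84 and 34 bases before the RefSeq start of transcription, and those of Myl9 161 and 99 bases before it. The Acta2 transcript counted here begins further upstream, at chr19:34255590, so that both Acta2 boxes lie within its span. A strict box, with only A and T at its centre, stood in the window of Myl9 alone among the 7 genes, and in 1.81% of the 27025 genes with a promoter sequence. With the relaxed definition, 2 of the 7 genes and 11.3% of all genes held a box. These are matches of letters in a short window, and binding was not measured.

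Gene totals were 35984144 to 43521208 counts in whole astrocyte libraries and 2319495 to 13450588 in endfeet libraries, with endfeet library 6 the shallowest and library 1, at 6511709 counts, the next. The common dispersion, which measures the spread between libraries of a group, was 0.725 in endfeet and 0.0141 in whole astrocyte libraries. Endfeet libraries 1 to 3 carry another series of numbers than endfeet libraries 4 to 6 and the whole astrocyte libraries. The meaning of these numbers is not given, and values within each series are given with the fold changes. Markers of the vessel wall moved with the comparison. Over all genes tested, 20.7% were called higher in endfeet and 13.9% lower. All 10 endothelial markers were called higher in endfeet, with a summed level of 2750 to 5715 CPM against 7.20 to 9.16 CPM, and so were all 10 pericyte markers (2385 to 7867 against 36.3 to 45.3 CPM) and 7 of 8 fibroblast markers (701 to 1363 against 29.99 to 44.7 CPM), with no marker of these lists at 0 in all libraries. Several endothelial and pericyte markers passed the filter on low counts only through the endfeet libraries. Of the 10 astrocyte markers, 1 was called higher, 4 were called lower and 5 were not called, and their summed level was 10950 to 29800 CPM in endfeet against 23337 to 25179 CPM. Of the 8 markers each of microglia and macrophages, neurons and oligodendrocytes, 5, 0 and 0 were called higher and 0, 3 and 2 lower, and the summed neuronal level was 982 to 1872 CPM in endfeet against 3613 to 4114 CPM. The summed levels were 167 to 346 against 18.9 to 22.6 CPM for microglia and macrophages and 255 to 541 against 850.2 to 873 CPM for oligodendrocytes. Without endfeet library 1 there were 5 neuronal markers called lower, and without whole astrocyte library 2 there was 1. Of the 9 mRNAs encoded in mitochondria, whose ribosomes hold no L10a, 6 were tested and all 6 were called higher (summed level 3266 to 7881 against 27.6 to 52.9 CPM), and mt-Co2, mt-Atp6 and mt-Co3 were listed at 0 in all libraries. Whether RNA of vessel cells that entered the endfeet libraries without being bound to tagged ribosomes has a part in the levels below was not tested.

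All 10 contractile genes were called higher in endfeet by edgeR's quasi-likelihood test at an adjusted p of 0.05, where 20.7% of all genes tested were called higher. None was called lower, where 13.9% of all genes were. Actg2 (0.0689 to 0.278 CPM in whole astrocyte libraries) and Cnn1 (0.207 to 0.805 CPM) passed the filter on low counts only through the endfeet libraries. A gene so low in whole astrocyte libraries is tested only if it is high in endfeet, so a call lower was not open to them. The median log2 fold change of the 10 genes was 5.03, beside 0.10 over all genes tested. It was 5.13 for the fibroblast, 6.12 for the pericyte and 9.76 for the endothelial markers, so a median of this size was not particular to the contractile genes. In 8 of the 10 every endfeet library lay above every whole astrocyte library in normalized counts, as in 19.1% of all genes tested, and the exceptions were Actg2 and Lmod1. In bulk libraries such as these, fewer cells of a type and less RNA per cell cannot be told apart. The number called was 7 to 10 over the alternatives, and all 10 stayed called when endfeet libraries 1 and 6 were both left out.

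**Figure D1:**
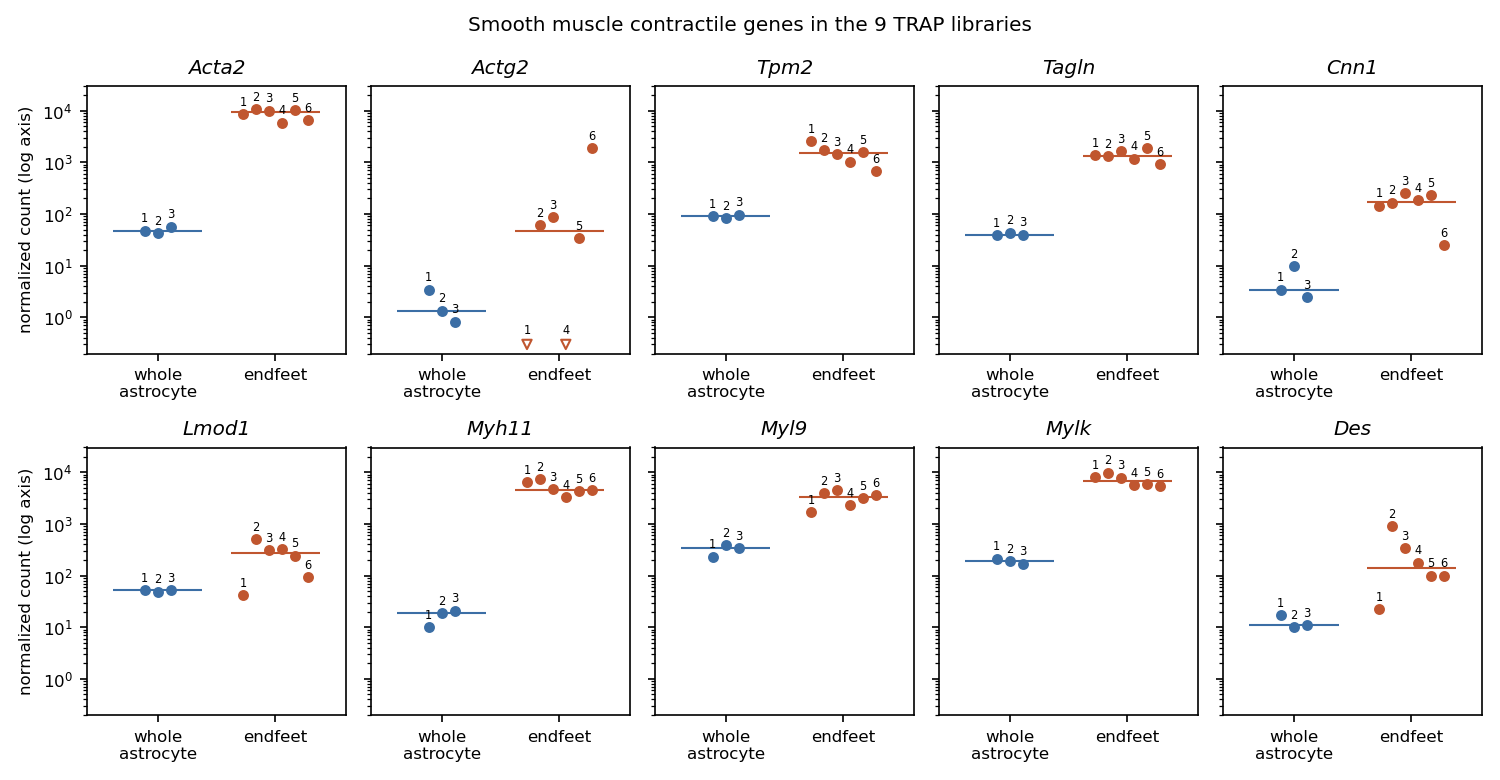
Normalized counts on a log axis of the 10 contractile genes in the 3 whole astrocyte libraries (blue) and the 6 endfeet libraries (orange), each point 1 library with its replicate number, each line the group median, and open triangles at the lower edge libraries with a count of 0. The groups do not overlap except for Actg2, where endfeet libraries 1 and 4 had no count and library 6 stood at 1868, and Lmod1, where endfeet library 1 lay below the whole astrocyte libraries.

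Acta2 (ENSMUST00000039631, chr19:34241090-34255590, minus strand, 9 exons) encodes the alpha actin of vascular smooth muscle. Its normalized counts, which are counts divided by the library's size factor, were 47.5, 43.2 and 57.2 in whole astrocyte libraries and 5825 to 10753 in endfeet libraries, with a median of 9300. All 6 endfeet libraries lay far above the whole astrocyte libraries, and the highest of them was only 1.85 times the lowest. On the log2 scale Acta2 was higher in endfeet by 7.44 ± 0.39 (SE, adjusted p = 9.8e-08, edgeR), or 174-fold.

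Actg2 (ENSMUST00000075161, chr6:83512905-83536265, minus strand, 9 exons) encodes the gamma actin typical of visceral smooth muscle. Its raw counts were 0, 42, 106, 0, 36 and 302 in endfeet libraries 1 to 6 and 10, 4 and 3 in whole astrocyte libraries. In normalized counts these were 0, 61.5, 88.1, 0, 33.9 and 1868 in endfeet and 3.44, 1.35 and 0.833 in whole astrocyte libraries. The shallowest library therefore held the most. For the libraries with no count the exact Poisson 95% upper limits were 9.05 (library 1) and 3.71 (library 4) normalized counts. The 302 reads of library 6 give an exact Poisson 95% interval of 1663 to 2091 normalized counts, which covers the error of counting and nothing else, as reads copied in amplification do not each stand for a molecule. The transcript ENSMUST00000152029, which shares 622 of the 1333 exon bases of the representative, held 1.66% of its count (5 reads) in library 6. It held 44.4% (16 reads) in library 5, 13.2% (14 reads) in library 3 and 4.76% (2 reads) in library 2. For 2 further transcripts library 6 lay within the range of libraries 2, 3 and 5. ENSMUST00000124933 was at 35.1% there, against 14.2% to 66.7%, and ENSMUST00000141904 at 35.1%, against 18.9% to 69.4%. ENSMUST00000121731 was at 100%, against 89.6% to 100%, so an uneven placing particular to library 6 is not shown. The fitted log2 difference was 7.36 ± 2.47 (SE, adjusted p = 0.035, edgeR), and without endfeet library 6 it was 4.26 with an adjusted p of 0.078. The call was also lost without whole astrocyte library 1, 2 or 3 (edgeR adjusted p = 0.089, 0.12 and 0.12).

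Both actins of non-muscle cells are listed beside these. Actb was 9097 to 10200.3 normalized counts in whole astrocyte libraries and 5759 to 9299 in endfeet, a log2 difference of -0.31 ± 0.23 (SE, adjusted p = 0.32, edgeR). Actg1, at mean normalized counts of 0.322 in whole astrocyte and 1.23 in endfeet libraries, was not tested. Only 46.2% of the read positions of Actb and 46.7% of those of Actg1 were unique in the transcriptome, and reads at the other positions were removed as multiple alignments, so these counts are uncertain. The corresponding share was 96.5% for Acta2 and 95.6% for Actg2. Acta1 of skeletal muscle had means of 11.8 and 11.9 normalized counts in the same order (log2 difference 0.07 ± 1.08, SE, edgeR adjusted p = 0.97), and Actc1 of heart had no count in any library.

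Tpm2 (ENSMUST00000030184, or Tpm2-201, chr4:43514711-43523464, minus strand, 9 exons) encodes beta tropomyosin, which lies along the actin filament. It measured 90.6, 84.1 and 96.6 normalized counts in whole astrocyte libraries and 674 to 2566 in endfeet, with a median of 1488. The groups were separate, and library 1 was the highest of the endfeet libraries and library 6 the lowest. The log2 difference was 4.03 ± 0.48 (SE, adjusted p = 3.8e-05, edgeR). The other tropomyosins were read beside it. Tpm1 was higher by 1.66 ± 0.26 and Tpm4 by 2.43 ± 0.30 on the log2 scale (SE, edgeR adjusted p = 2.9e-04 and 4.5e-05), and Tpm3 gave -0.17 ± 0.50 (adjusted p = 0.82), with 10.9% of its read positions unique.

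Tagln (ENSMUST00000034590, chr9:45929619-45936058, minus strand, 5 exons) encodes transgelin, an actin-binding protein. It stood at 39.3, 43.6 and 39.7 normalized counts in whole astrocyte libraries and at 928 to 1891 in endfeet, with a median of 1342. The 6 endfeet libraries spread over 2.04 times, and none came near the other group. The log2 difference was 5.07 ± 0.42 (SE, adjusted p = 1.8e-06, edgeR). An antisense gene of GENCODE M21, Gm48529, covers 55.0% of its exon bases, and Pcsk7, also on the other strand, covers 6.77%. Only 45.2% of its read positions were unique, the rest being shared with these genes. Without knowledge of whether strand was used in the counting, reads of Tagln there cannot be told apart from theirs. Of its relatives, Tagln2 was higher in endfeet by 3.58 ± 0.36 and Tagln3, which is expressed in neurons, was lower, at -3.87 ± 0.29 on the log2 scale (SE, edgeR adjusted p = 9.3e-06 and 7.0e-07).

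Cnn1 (ENSMUST00000001384, chr9:22099268-22109630, plus strand, 7 exons) encodes calponin, which restrains actomyosin in smooth muscle. It had 3.44, 9.79 and 2.50 normalized counts in whole astrocyte libraries and 24.7 to 257 in endfeet, with a median of 174. Only 4 reads stood behind the lowest endfeet value, that of library 6, with an exact Poisson 95% interval of 6.74 to 63.3 normalized counts, so that this library cannot be separated from the whole astrocyte libraries by its own count. The log2 difference was 4.99 ± 1.04 (SE, adjusted p = 0.0024, edgeR). Cnn2 was higher by 2.91 ± 0.48 and Cnn3 gave -1.87 ± 0.43 (SE, edgeR adjusted p = 5.0e-04 and 0.0044), so that the calponins were called in opposite directions. Only 50.5% of the read positions of Cnn3 were unique.

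Lmod1 (ENSMUST00000059352, chr1:135324807-135368065, plus strand, 3 exons) encodes leiomodin, which starts new actin filaments in smooth muscle. It was at 52.7, 49.0 and 52.5 normalized counts in whole astrocyte libraries and at 41.7, 509, 310, 322, 242 and 92.8 in endfeet libraries 1 to 6. Library 1 thus lay below all whole astrocyte libraries, and its 17 reads gave an interval of 24.3 to 66.8 normalized counts that spans them. The log2 difference of 2.30 ± 0.81 (SE, adjusted p = 0.043, edgeR) was the smallest of the 10 genes. It was no longer called without endfeet library 2, 3, 4 or 5 or any whole astrocyte library, with edgeR adjusted p values of 0.072 to 0.15, and without endfeet libraries 1 and 6 it was 2.76 (adjusted p = 2.1e-04). Of the tropomodulins, its relatives, Tmod1 was higher by 1.42 ± 0.45 and Tmod3 by 1.01 ± 0.29, and Tmod2, typical of neurons, gave -1.14 ± 0.29 on the log2 scale (SE, edgeR adjusted p = 0.027, 0.015 and 0.0091).

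Myh11 (ENSMUST00000090287, chr16:14194535-14291372, minus strand, 41 exons) encodes the myosin heavy chain of smooth muscle, the motor itself. It measured 9.99, 18.9 and 20.8 normalized counts in whole astrocyte libraries and 3259 to 7356 in endfeet, with a median of 4588. This was the largest fold change among the 10 genes, at 8.24 ± 0.48 on the log2 scale (SE, adjusted p = 1.7e-07, edgeR), or 301-fold. Of the non-muscle heavy chains, Myh9 was higher by 4.55 ± 0.37 and Myh10 by 1.44 ± 0.40 (SE, edgeR adjusted p = 1.6e-06 and 0.014), and Myh14 gave 0.27 ± 0.65 (adjusted p = 0.78).

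Myl9 (ENSMUST00000088552, chr2:156775420-156781658, plus strand, 4 exons) encodes the regulatory light chain whose phosphorylation starts contraction. It had 231, 386 and 338 normalized counts in whole astrocyte libraries, where it was the highest of the 10 genes per kb of exon, and 1688 to 4538 in endfeet, with a median of 3367. The endfeet libraries all lay above the other group, library 1 being the nearest to it. Its log2 difference of 3.31 ± 0.39 (SE, adjusted p = 3.4e-05, edgeR) was accordingly the smallest but for Lmod1. The non-muscle light chains gave 0.82 ± 0.39 for Myl12a and -0.45 ± 0.38 for Myl12b on the log2 scale (SE, edgeR adjusted p = 0.12 and 0.39). Of their read positions 73.7% and 69.6% were unique, and some of the others were shared between the 2 genes. The essential light chain Myl6 was near the floor, at mean normalized counts of 4.81 in whole astrocyte and 24.0 in endfeet libraries (range 1.88 to 68.0 in endfeet). It gave 2.21 ± 1.25 on the log2 scale (SE, edgeR adjusted p = 0.19), so a lack of change is not shown. Myl6 passed the filter on low counts only through the endfeet libraries. The share of its read positions that are unique was not examined, so its low level is uncertain.

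Mylk (ENSMUST00000023538, chr16:34784921-35002420, plus strand, 32 exons) encodes the kinase of that light chain. It stood at 212, 191 and 170 normalized counts in whole astrocyte libraries and at 5300 to 9825 in endfeet, with a median of 6817. The highest endfeet library was 1.85 times the lowest, as for Acta2. The log2 difference was 5.19 ± 0.35 (SE, adjusted p = 3.5e-07, edgeR).

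Des (ENSMUST00000027409, chr1:75360329-75368579, plus strand, 9 exons) encodes desmin, the intermediate filament of muscle, found also in pericytes. It had 16.9, 10.1 and 10.8 normalized counts in whole astrocyte libraries and 22.1, 912, 342, 176, 98.9 and 98.9 in endfeet libraries 1 to 6. Library 2 was 41.3 times library 1, and the 9 reads of library 1 gave an interval of 10.1 to 41.9 normalized counts that reached the whole astrocyte values. The log2 difference was 4.44 ± 1.16 (SE, adjusted p = 0.0099, edgeR). Without whole astrocyte library 2 or 3 the adjusted p was 0.053 or 0.052. Vim, the intermediate filament of many non-muscle cells, was higher by 2.45 ± 0.28 on the log2 scale (SE, edgeR adjusted p = 2.5e-05).

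**Figure D2:**
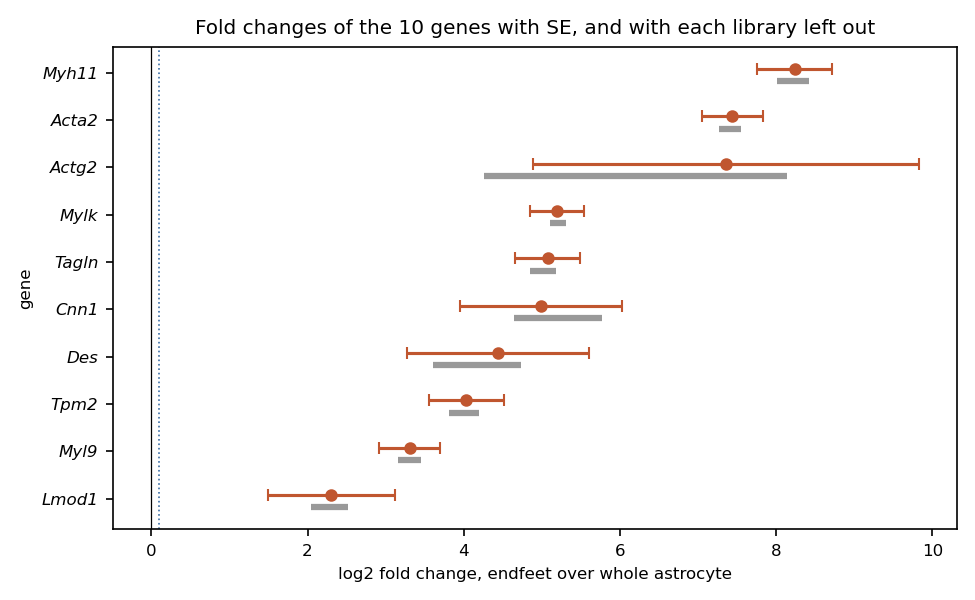
Log2 fold changes of the 10 contractile genes, endfeet over whole astrocyte, with their SE (orange) and, as grey bars, their range when each of the 9 libraries was left out in turn. The solid line marks 0 and the dotted line the median of all genes tested, 0.10, and the grey bar of Actg2 is the widest, from 4.26 to 8.13.

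Within the series of numbers shared by endfeet libraries 4 to 6 and the whole astrocyte libraries, 9 of the 10 genes could be tested and all 9 were called higher, with log2 differences of 1.97 (Lmod1) to 7.76 (Myh11) and a median of 4.69. Over all 14339 genes tested there, 2798 were called higher and the median was -0.16. Endfeet libraries 1 to 3 against the same whole astrocyte libraries gave 2.48 (Lmod1) to 8.49 (Myh11), with a median of 5.11, and 8 of the 9 genes were called, the exception being Lmod1 (edgeR adjusted p = 0.058). Over all 14426 genes tested there, 3134 were called higher and the median was -0.03. Actg2 did not pass the filter on low counts in either. The order of Myh11 first and Acta2 next was the same in both.

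Between genes, levels were compared as CPM per kb of exon of the representative transcript. In endfeet Acta2 came first, at a median of 331 and a range of 224 to 444 CPM per kb, and Myl9 second, at 221 (93.7 to 364). Acta2 was above Myl9, and Myl9 above Tagln, in 6 of 6 endfeet libraries. Another 4 genes followed with close medians of 61.5 (Tagln), 60.9 (Mylk), 57.7 (Tpm2) and 57.1 CPM per kb (Myh11). Tpm2 was divided by all 2175 exon bases of Tpm2-201. Of these, 1142 held almost no net count in endfeet libraries 2, 4, 5 and 6, as given below with its transcripts. Its level per kb, its place among these genes and the shares of the summed levels below depend on that length. Tagln was above Mylk in 3 of 6 libraries, Mylk above Tpm2 in 5 of 6 and Tpm2 above Myh11 in 2 of 6. The medians of the last 4 genes were lower, but in library 6 Actg2, at 97.7 CPM per kb, was above all but Acta2 and Myl9. Myh11 was above Cnn1 in 6 of 6 libraries. The medians of Cnn1, Lmod1, Des and Actg2 were 5.76, 5.62, 3.57 and 2.82 CPM per kb, and Cnn1 was above Lmod1, and Lmod1 above Des, in only 3 of 6 libraries.

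**Figure D3:**
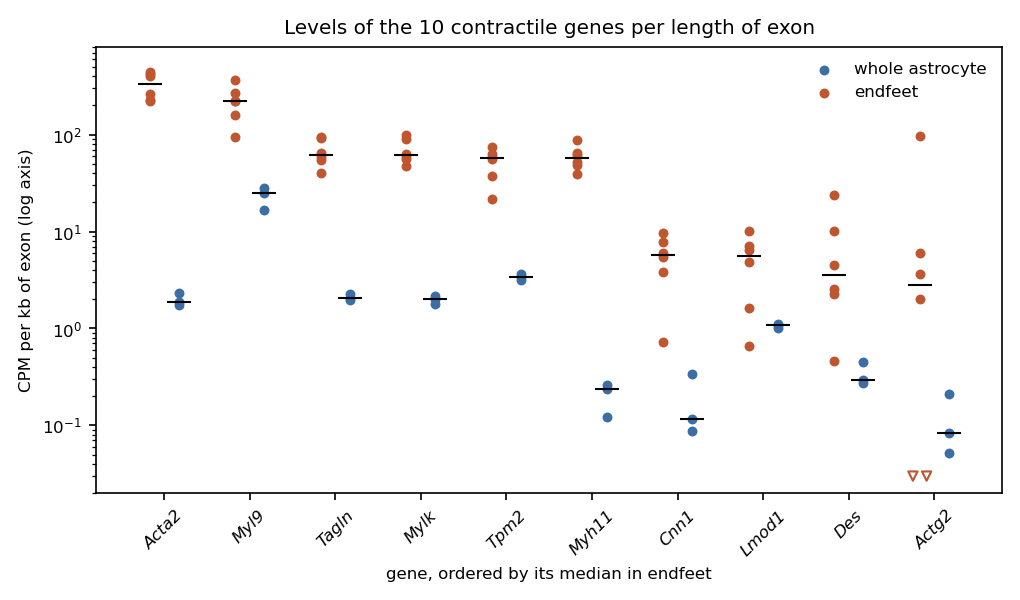
CPM per kb of exon, on a log axis, of the 10 contractile genes in the endfeet (orange) and whole astrocyte (blue) libraries, each point 1 library, black lines the group medians and open triangles the endfeet libraries with a count of 0. Acta2 and Myl9 lead in endfeet, at medians of 331 and 221, while Myl9 alone leads in whole astrocyte libraries, at 24.8.

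The make-up of the group differed between the preparations. Of the summed CPM per kb of the 10 genes, Acta2 held 32.0% to 44.3% in endfeet libraries and 4.45% to 6.76% in whole astrocyte libraries. Myl9 held 15.2% to 31.7% and 59.2% to 71.6%, and Myh11 5.57% to 10.1% and 0.441% to 0.721%. For these 3 genes the ranges of the groups did not overlap. Tagln held similar shares in both, at 5.74% to 10.4% and 5.65% to 7.12%. In whole astrocyte libraries the order was Myl9 (median 24.8 CPM per kb), Tpm2 (3.36), Tagln (2.06), Mylk (2.01) and Acta2 (1.88). Since junction reads could not align, a gene of many short exons is undercounted per kb. Counted per 1000 positions at which a read lies within 1 exon, Myh11 moved from the sixth to the third place in endfeet and Tagln from the third to the fifth, while Acta2 and Myl9 stayed first and second.

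The endfeet libraries differed more for some of these genes than for others. The coefficient of variation of normalized counts over the 6 endfeet libraries was 23.6% for Acta2, 24.5% for Tagln, 25.3% for Mylk, 29.7% for Myh11 and 32.7% for Myl9. Genes of similar mean, within 2 times of it, had median coefficients of 33.4%, 42.6%, 32.9%, 32.9% and 35.2% in the same order, so that each of the 5 lay below the median of such genes. Tpm2 (43.4% beside 41.8%) and Lmod1 (67.1% beside 65.5%) were near that median, and Cnn1 (48.7% beside 72.8%) was below it. Des (120% beside 63.8%) and Actg2 (219% beside 60.5%) were above it. Without library 6 the coefficient was 105% for Actg2 and 24.0% for Cnn1. Library 2 was the highest for 5 of the 10 genes (Acta2, Lmod1, Myh11, Mylk and Des). Library 1 was the lowest for Actg2 (with library 4), Lmod1, Myl9 and Des, and library 6 for Tpm2, Tagln, Cnn1 and Mylk.

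Transcripts of a gene could be compared where its representative had at least 10 counts in every library and it had more than 1 transcript, which left Tpm2, Myl9 and Mylk and 9 ratios. A read was counted on every transcript it overlapped, so each count was taken as a percent of the count of the representative. For Tpm2 the ratios differed between the groups. The coding sequence of this gene holds an inner exon in 2 forms, of which Tpm2-201 uses one and Tpm2-202 the other, and ends in 2 alternative stretches, of which Tpm2-201 and Tpm2-203 each use one. These are shown because they are the coding parts in which the transcripts compared differ, with capitals at the bases that differ within a pair aligned without gaps.
Tpm2-201, inner exon, chr4:43519003-43519078, minus strand: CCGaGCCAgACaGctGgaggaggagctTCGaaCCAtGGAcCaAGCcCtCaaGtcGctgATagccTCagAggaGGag
Tpm2-202, inner exon, chr4:43518644-43518719, minus strand: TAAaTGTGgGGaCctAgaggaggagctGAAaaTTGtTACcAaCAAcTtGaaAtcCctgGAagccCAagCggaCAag
Tpm2-201, last coding stretch, chr4:43515924-43516003, minus strand: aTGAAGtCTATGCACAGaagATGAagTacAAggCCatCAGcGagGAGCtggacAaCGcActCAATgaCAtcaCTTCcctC
Tpm2-203, last coding stretch, chr4:43514782-43514861, minus strand: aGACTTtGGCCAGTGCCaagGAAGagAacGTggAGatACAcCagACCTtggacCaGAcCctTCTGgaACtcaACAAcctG

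The inner exons have 76 bases each and differ at 35 of them, and the last coding stretches have 80 bases each and differ at 47. The count of Tpm2-203 was 65.0%, 67.9% and 69.5% of that of Tpm2-201 in whole astrocyte libraries and 87.8% to 100% in endfeet, with a median of 99.6%. The groups did not overlap (two-sided exact permutation test over 84 splits, p = 0.0119, adjusted p = 0.027 over the 9 ratios, 0.0119 being the smallest p the splits can give). Tpm2-201 has 1142 bases that Tpm2-203 lacks, chr4:43514862-43516003, which hold its last coding stretch and, beyond it, a part that is not translated. The count of Tpm2-201 exceeded that of Tpm2-203 by 92, 80 and 106 reads in whole astrocyte libraries, or 30.5% to 34.98% of it, and by 128, 6, 131, 1, 4 and 0 reads in endfeet libraries 1 to 6, or at most 12.2%. In endfeet libraries 2, 4, 5 and 6 there was thus almost no net count for these bases, whereas libraries 1 and 3 held some. The difference is net, because the first exon of Tpm2-203 is the longer one.

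The transcript with the other inner exon showed a smaller shift. The count of Tpm2-202 was 99.6% to 100.3% of that of Tpm2-201 in whole astrocyte libraries, and 88.6% to 95.4% in endfeet (exact permutation p = 0.0119, adjusted p = 0.027). This ratio too is net, because Tpm2-201 has 153 bases of its own against Tpm2-202, of which the inner exon is 76 and a stretch of the first exon another 76, and Tpm2-202 has only its inner exon. The counts therefore do not tell where the surplus of Tpm2-201 lay. Tpm2-205 moved as Tpm2-203 did, at 67.7% to 73.9% in whole astrocyte libraries and 88.5% to 100.1% in endfeet, and Tpm2-204 was at 23.3% to 26.5% and 2.75% to 15.6% (exact permutation adjusted p = 0.027 for each). These transcripts share exons, so the 4 ratios repeat some of the same reads. Tpm2-206 gave 20.9% to 21.8% and 3.25% to 28.7% (exact permutation adjusted p = 0.46). For the 3 other transcripts of Myl9 and the other transcript of Mylk the exact permutation adjusted p was 0.19 to 0.87, and these ratios are not shown to differ.

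**Figure D4:**
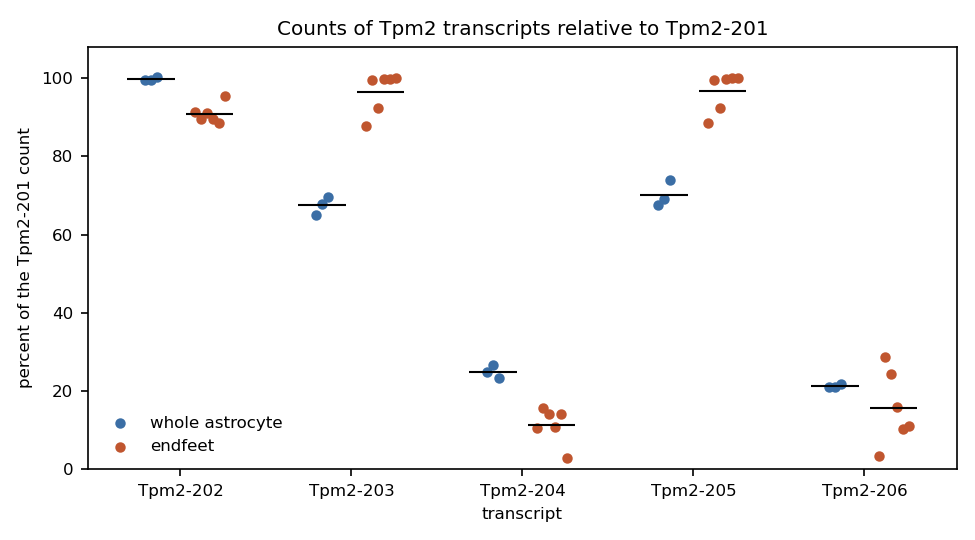
Counts of 5 transcripts of Tpm2 as a percent of the count of Tpm2-201 in the same library, in 3 whole astrocyte (blue) and 6 endfeet (orange) libraries, with the group mean as a black line. Tpm2-203 and Tpm2-205 lie between 65.0% and 73.9% in whole astrocyte and between 87.8% and 100.1% in endfeet libraries.

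Other genes of the contractile apparatus were read from lists by role. Of 13 partners that anchor or border the filaments, 9 were called higher in endfeet and 1 lower, with a median log2 difference of 2.24. The shares over all genes tested, to set beside the counts of this and the following lists, were 20.7% higher and 13.9% lower. Flna, which crosslinks actin, was 2471 to 4922 normalized counts in endfeet against 70.2 to 94.4 (log2 difference 5.27 ± 0.36, SE, edgeR adjusted p = 3.7e-07). Smtn, or smoothelin, and Synm, or synemin, which partners desmin, were higher by 4.63 ± 0.81 and 4.58 ± 0.43 (SE, edgeR adjusted p = 7.2e-04 and 4.6e-06). The gene called lower was Csrp1, a LIM protein of the actin scaffold, at -2.72 ± 0.28 (SE, edgeR adjusted p = 1.2e-05), with 2373 to 5607 against 19279 to 22505 normalized counts. Vcl, or vinculin, which ties filaments to the membrane, gave 0.81 ± 0.32 (SE, edgeR adjusted p = 0.064).

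Of 9 genes that control light chain phosphorylation, 8 were tested. Calls were 4 higher and 2 lower, where 20.7% and 13.9% of all genes tested were called, with a median log2 difference of 1.28. Prkg1, the cGMP-dependent kinase that relaxes vessels, was higher by 3.17 ± 0.93, Ppp1r12b, a myosin phosphatase subunit, by 1.80 ± 0.33 and Rock1, a kinase that inhibits this phosphatase, by 1.46 ± 0.31 (SE, edgeR adjusted p = 0.018, 0.0010 and 0.0027). Prkg1 ranged from 17.2 to 872 normalized counts in endfeet and from 25.7 to 57.2 in whole astrocyte libraries. For this gene 1 endfeet library lay below all whole astrocyte libraries. Rhoa, which activates Rock1, and Ppp1cb, the catalytic subunit of the phosphatase, gave -1.04 ± 0.30 and -0.97 ± 0.23 (SE, edgeR adjusted p = 0.016 and 0.0052). Without any 1 of the 3 whole astrocyte libraries, 2 genes of this list were called higher and 1 lower. In those fits 1874 to 1959 of 14847 to 14852 genes were called higher and 1171 to 1217 lower.

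All 8 genes of calcium handling were called higher, with a median log2 difference of 2.32. Kcnmb1, the smooth muscle subunit of the BK potassium channel, was 92.8 to 1578 normalized counts in endfeet and 7.49 to 11.1 in whole astrocyte libraries, a log2 difference of 6.64 ± 1.004 (SE, edgeR adjusted p = 2.4e-04). Kcnmb1 passed the filter on low counts only through the endfeet libraries. Its channel partner Kcnma1, which neurons also express, was higher by 1.16 ± 0.41 (adjusted p = 0.045). Pln, or phospholamban, was higher by 6.19 ± 0.47 and its target, the calcium pump Atp2a2, by 1.16 ± 0.30 (SE, edgeR adjusted p = 9.0e-07 and 0.0096). Casq2, a calcium store protein, was higher by 4.80 ± 0.58 (SE, edgeR adjusted p = 4.1e-05).

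Of the 4 regulators that act through CArG boxes, 2 were called higher, with a median log2 difference of 1.39. Myocd, or myocardin, was 131 to 473 normalized counts in endfeet and 0.689 to 2.70 in whole astrocyte libraries, a log2 difference of 7.22 ± 0.92 (SE, edgeR adjusted p = 6.1e-05). Myocd passed the filter on low counts only through the endfeet libraries. Mrtfb was higher by 1.70 ± 0.24 (adjusted p = 1.5e-04). Srf itself gave 1.08 ± 0.54 and Mrtfa -0.49 ± 0.55 (SE, edgeR adjusted p = 0.14 and 0.52).

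Non-muscle counterparts of the 10 genes gave 8 calls higher and 3 lower among 16 tested of 17, with a median log2 difference of 0.92, and 5 calls higher without any 1 of the whole astrocyte libraries. The genes called lower were Tagln3, Cnn3 and Tmod2, described above. Of 17 genes of striated muscle only 6 were tested, with 1 call higher and 1 lower and a median of -0.58. Beside these stand 20.7% and 13.9% of all genes tested. Ttn, or titin, was 488 to 2803 normalized counts in endfeet and 5.17 to 7.22 in whole astrocyte libraries, a log2 difference of 7.68 ± 0.85 (SE, edgeR adjusted p = 2.2e-05). Ttn passed the filter on low counts only through the endfeet libraries. Myl2, a light chain of heart and slow muscle, was called lower, with 11.1 to 16.5 normalized counts in whole astrocyte libraries and no count in any endfeet library. It passed the filter on low counts only through the group that holds it, and the call was lost with the replicate block (edgeR adjusted p = 0.081) and with DESeq2 (adjusted p = 0.076, or 0.064 with its prior). With endfeet libraries 4 to 6 only, 4 genes of this list were called lower, and 3 with limma voom. Mylpf and Tnnt1 gave 0.32 ± 1.34 and -1.70 ± 1.15 on the log2 scale (SE, edgeR adjusted p = 0.87 and 0.27). The striated chains Myh1, Myh2, Myh4, Myh6, Myh7 and Myl1 were not tested, with at most 67.3 normalized counts in any library.

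**Figure D5:**
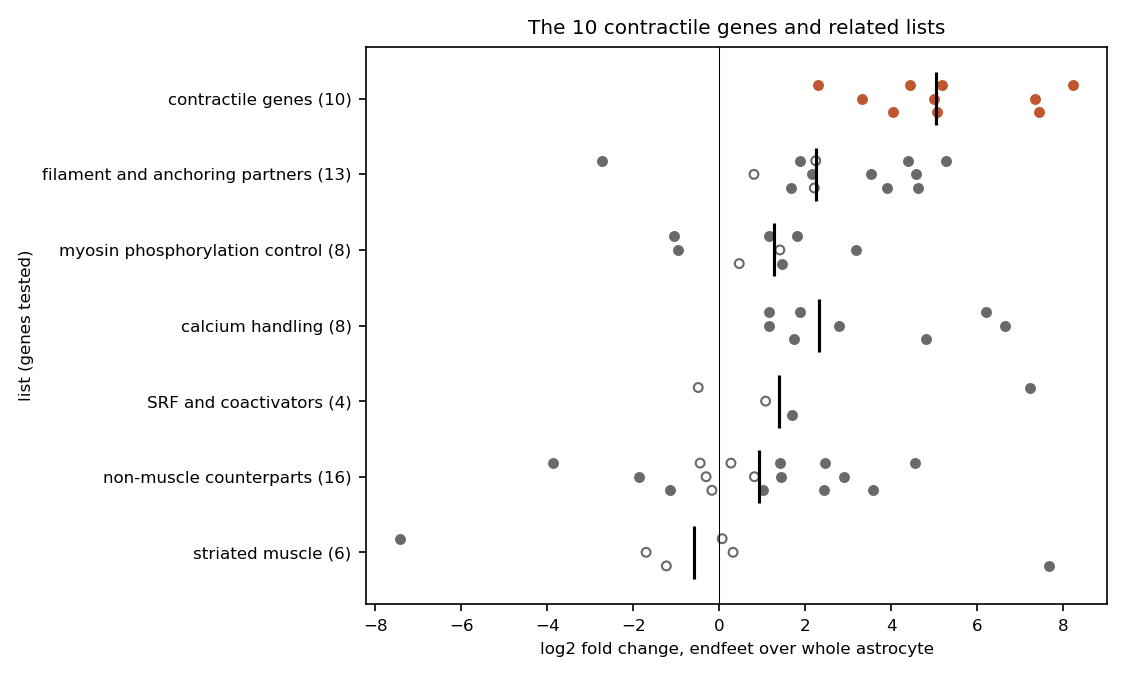
Log2 fold changes, endfeet over whole astrocyte, of the genes tested in the contractile group and in 6 related lists, filled where called at an adjusted p of 0.05 and open where not, with the list's median as a vertical bar. The median is 5.03 for the contractile genes and -0.58 to 2.32 for the 6 related lists. The lists of vessel wall markers are not drawn.

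As a description, genes were ranked by how closely their log2(CPM + 1) followed the mean of the 10 genes over the 6 endfeet libraries. Of 12188 other genes with a mean above 50 normalized counts in endfeet, the first 10 were Nosip, Gnptab, Nr2f2, Cisd2, Arhgef17, Rnf149, Irf2bpl, Lyl1, Itpr3 and Mgme1, with Pearson r of 0.973 to 0.991. The ranking rested on Actg2, since with this gene left out of the mean none of the same 10 genes was among the first 10. With 6 libraries that differ in depth and so many genes, high coefficients occur for many genes.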

How the data were processed

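Ribosome-bound RNA of 3 whole astrocyte and 6 endfeet TRAP libraries was analysed. The authors amplified polysomal RNA, sequenced reads of 50 bases, aligned them to mm10 with Bowtie without splicing, dropped multiple alignments, and counted overlaps with Ensembl transcripts by HTSeq-count (HTSeq 0.5.3 and bcl2fastq 1.8.4 per the labels). The deposited values are raw counts, not normalized, and replicates were not pooled. The strand setting of the counting is not given in the sources used here.

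Of 75466 transcripts, 73164 were matched to GENCODE M21 in 22092 genes. The 10 genes and all lists were chosen with earlier results of these data known, and 2 genes of the lists are not reported here and were left out of their counts. Groups were compared with edgeR 4.0.16 in R 4.3.3 (TMM, filterByExpr, quasi-likelihood test, Benjamini-Hochberg over 14427 genes, threshold 0.05), with SE taken as the absolute log2 fold change over the square root of F. Normalized counts used the size factors of DESeq2 1.42.0. The tests were tested on simulated data in which both groups shared the dispersion of a gene, so the unequal spread of the real groups was not covered. There edgeR called 24% of genes changed by 2 on the log2 scale, 71% of those changed by 4 and 5 unchanged genes. Transcript ratios were compared by two-sided exact permutation over 84 splits. A floor was taken as 3 counts, which was 0.0689 to 0.0834 CPM in whole astrocyte and 0.223 to 1.29 CPM in endfeet libraries, and intervals cover counting error only. The p values measure the spread between these libraries. Those of edgeR use a dispersion of each gene shared by both groups, although the spread was far larger in endfeet libraries. Read positions were called unique where a stretch of 50 bases within 1 exon matched no other gene's transcript with up to 2 mismatches. Promoters were read from RefSeq tables of GRCm38.p6. Besides the 10 genes, the text names the 3 highest and 2 lowest log2 fold changes of each list other than the cell type markers, and the relatives of the 10 genes. Tables were handled in Python 3.11.15.

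Alternatives were DESeq2 size factors in edgeR, DESeq2 with and without a fold change prior, limma 3.58.1 voom with group weights, no filter or at least 10 counts in every library, transcripts summed, the longest transcript, a replicate block, the library number series, a log2 fold change of 1 or more in size, TMM levels, at least 50 counts for a ratio, and each library left out. The removal of endfeet libraries 1 and 6 together, levels per read position, the ranking without Actg2 and the relaxed CArG box were chosen after seeing the data.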

Additional observations from a re-analysis of the deposited data

Results flagged for a closer look

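Among 19 groups of 6 endfeet values examined (10 genes and 9 transcript ratios), 2 held a library far from the others by Dixon's criterion at 95%, where chance gives about 1 in 20. Actg2 in endfeet library 6 was at 1868 normalized counts, with a gap to the next library of 0.953 of the whole range. Des in endfeet library 2 was at 912 normalized counts, with a gap of 0.640 of the range. The cause of neither was tested.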

How the results depend on the processing

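All 10 genes kept their direction under every alternative in which they could be tested. Acta2, Tpm2, Tagln, Cnn1, Myh11, Myl9 and Mylk stayed called in all of them. With the replicate number as a block, calls fell to 7 of 10. This gave log2 differences of 4.32 for Actg2 (adjusted p = 0.092), 1.98 for Lmod1 (0.16) and 4.30 for Des (0.056). Deviations of same-numbered libraries had a mean correlation of 0.00651 over 3 pairs, against 0.000272 over 6 other pairs. No pairing by number was seen, but so few pairs cannot decide whether there was one. Lmod1 was also not called with endfeet libraries 1 to 3 only (2.48), with no filter on low counts (2.24) and with transcripts summed (2.28). With each library left out in turn, log2 differences were 4.26 to 8.13 for Actg2, 2.04 to 2.52 for Lmod1 and 3.61 to 4.74 for Des. The coefficient of variation was 105% to 210.1% for Actg2 and 24.0% to 55.3% for Cnn1. With each library left out, the difference in percent, endfeet minus whole astrocyte, was -9.77 to -8.41 for Tpm2-202, 27.8 to 30.8 for Tpm2-203, -14.4 to -11.8 for Tpm2-204 and 25.3 to 28.4 for Tpm2-205. Without a whole astrocyte library their adjusted p was 0.080, as 28 splits allow no p below 0.0357. Differences that were not called changed sign for the Mylk transcript without whole astrocyte library 1 (0.0371) and for a Myl9 transcript without endfeet library 1 (0.412), 3 (0.139) or 5 (0.00906). Over the libraries left out they were -0.61 to 0.0371 and -2.003 to 0.412. The number of genes called higher was 1874 to 1959 without a whole astrocyte library, against 2991 with all, and the number called lower was 1171 to 1217 against 2006. Without endfeet libraries 1 and 6 it was 3369, and limma voom gave 3928 higher and 4485 lower, with a median log2 difference over all genes of -0.29. Actg2 had no adjusted p in DESeq2, and Actg2, Cnn1 and Des did not pass a filter of 10 counts in every library. Of 40 mean levels (10 genes in each group under each of 2 settings), 13 moved by more than 1 SD with transcripts summed and 3 with TMM. By read positions, 5 of 10 genes changed place in the order of levels. Endfeet depth limits genes of few reads: in library 6, 3 counts stand for 18.6 normalized counts.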
